A study of Mus musculus with 59 samples.

Results

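The 34 genes described here mark microglia, the resident macrophages of the brain, and were followed in the prefrontal cortex of young Shank3 knock-in and wild-type mice raised on lithium, fluoxetine or vehicle. The members were given as a list of symbols and found by matching the Ensembl identifiers of the deposited table to mouse gene symbols. All 34 were present among the 18088 genes of the table, and all 34 passed the filter on low values that left 16599 genes for testing (a mean normalized count of at least 10 over all libraries).

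The 59 libraries came from the cortex of C57BL/6J mice at postnatal day 25. The pups had been exposed to the drug through the milk of their dams from day 3 to day 24. The 6 arms were Shank3 KI heterozygous (HT) mice on lithium, HT mice on fluoxetine and HT mice on vehicle, and wild-type (WT) mice on lithium, WT mice on fluoxetine and WT mice on vehicle. Each arm held 5 females and 5 males, except WT lithium, with 4 females and 5 males. The labels name no litter or dam, so pups were counted as independent animals and the p-values rest on the spread between these libraries. Pups of one litter share a dam that was given the drug, and the number of litters in each arm is unknown. The p-values of the drug comparisons can therefore be too small. Nor do the sample labels name the knock-in allele. The column names of the deposited table begin with L68P, in HT and WT libraries alike, a prefix that the labels do not explain. The genotype could not be checked from gene counts: Shank3, the postsynaptic scaffold gene, averaged 7351 ± 1003 normalized counts in HT vehicle mice and 7456 ± 797 in WT vehicle mice (SD, n = 10 each).

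Microglia enter the brain in the embryo and depend on signalling through the CSF-1 receptor to survive. In the weeks around weaning they take part in the pruning of synapses, where complement C1q tags synapses and the fractalkine receptor CX3CR1 reads a signal from neurons. Their identity is set by transcription factors such as PU.1, the product of Spi1, and IRF8, and they sense injury through purinergic receptors such as P2RY12. Messenger RNA from whole cortex cannot tell a change in the number of microglia from a change in the RNA of each cell.

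Upstream sequence was examined for the PU box, GAGGAA on either strand, the core that PU.1 binds. Of 30 RefSeq windows (GRCm38.p6, 250 bases before the start of transcription) belonging to the 25 members with an entry, 16 windows of 15 members held the box, against 23.3% of all 32851 such windows. The ETS-IRF composite site, bound by PU.1 together with an interferon regulatory factor, was in 0 of the 30 windows and in 2.3% of all windows. A match is a description of the letters in this window, and the box was searched for because Spi1 is a member. The windows printed are those of Ctss, P2ry13 and Sash3. Ctss is the member with the highest mean count among those holding a box. P2ry13 and Sash3 were chosen after their values were seen, as holders of a box that fell in WT mice under either drug. Ly86 also fell in WT mice under either drug, and its window held no box. The sequences are printed 5′ to 3′ on the gene's strand, with the box in capitals.
Ctss, chr3:95526536-95526785, + strand: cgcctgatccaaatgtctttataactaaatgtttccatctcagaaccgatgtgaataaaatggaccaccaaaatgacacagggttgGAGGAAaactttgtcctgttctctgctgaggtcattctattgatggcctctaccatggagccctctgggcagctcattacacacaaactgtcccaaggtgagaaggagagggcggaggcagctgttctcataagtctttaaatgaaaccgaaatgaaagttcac
P2ry13, chr3:59210883-59211132, - strand: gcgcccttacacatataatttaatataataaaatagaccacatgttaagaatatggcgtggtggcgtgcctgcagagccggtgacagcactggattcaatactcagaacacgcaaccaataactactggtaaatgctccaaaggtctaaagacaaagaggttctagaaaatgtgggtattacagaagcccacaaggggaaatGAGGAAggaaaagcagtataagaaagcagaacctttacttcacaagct
Sash3, chrX:48146186-48146435, + strand: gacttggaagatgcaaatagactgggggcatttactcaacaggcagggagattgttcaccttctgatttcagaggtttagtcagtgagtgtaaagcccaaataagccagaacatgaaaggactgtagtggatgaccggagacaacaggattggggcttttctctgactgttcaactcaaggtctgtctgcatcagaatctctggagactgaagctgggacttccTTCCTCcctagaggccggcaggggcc
The box began 164 bases before the start of Ctss and 48 bases before that of P2ry13. It began 26 bases before the start of Sash3, on the opposite strand, so that it reads TTCCTC. For Laptm5 and C1qc, the members next in mean count, only the 30 bases around the box are shown, because their windows overlap annotated exons.
Laptm5, chr4:130913266-130913295, + strand: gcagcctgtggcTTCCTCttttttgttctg
C1qc, chr4:136893090-136893119, - strand: gacggcagacacTTCCTCattttggcacac

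In WT vehicle mice the levels of the 34 genes, per kilobase of transcript, spanned a wide range. Ctss, which encodes the lysosomal protease cathepsin S, was highest at 1118 ± 91.2 normalized counts per kilobase (SD, n = 10). The 3 chains of C1q followed close together, with 868 ± 87.7 for C1qa, 851 ± 89.9 for C1qb and 818 ± 103 for C1qc on the same scale. Neither C1qa and C1qb nor C1qb and C1qc differed by more than the larger of their SDs. P2ry12 (578 ± 84.2 per kilobase), Csf1r (546 ± 81.0) and Tyrobp (503 ± 63.0), the adaptor of TREM2, came next. At the low end stood Sash3, an adaptor of lymphoid and myeloid signalling, at 24.2 ± 4.19, Ikzf1, a zinc-finger transcription factor, at 23.5 ± 3.36, and Ptprc, which encodes CD45, at 20.7 ± 3.30 normalized counts per kilobase. Of the 33 steps between neighbours in this order, 10 were larger than the larger of the pair's SDs. Lengths were those of the longest principal transcript in GENCODE vM21, and the place of Olfml3 depends on an annotated transcript of 5465 bases. The mean normalized count of a member over all libraries, not scaled for length, ran from 54.4 for Sash3 to 2604 for Csf1r, and together the 34 genes took 0.0499% to 0.0733% of a library's normalized reads. Within the 12 groups of genotype, drug and sex the SD of a member's log2 value lay between 0.13 and 0.31, with a median of 0.22.

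**Figure D1:**
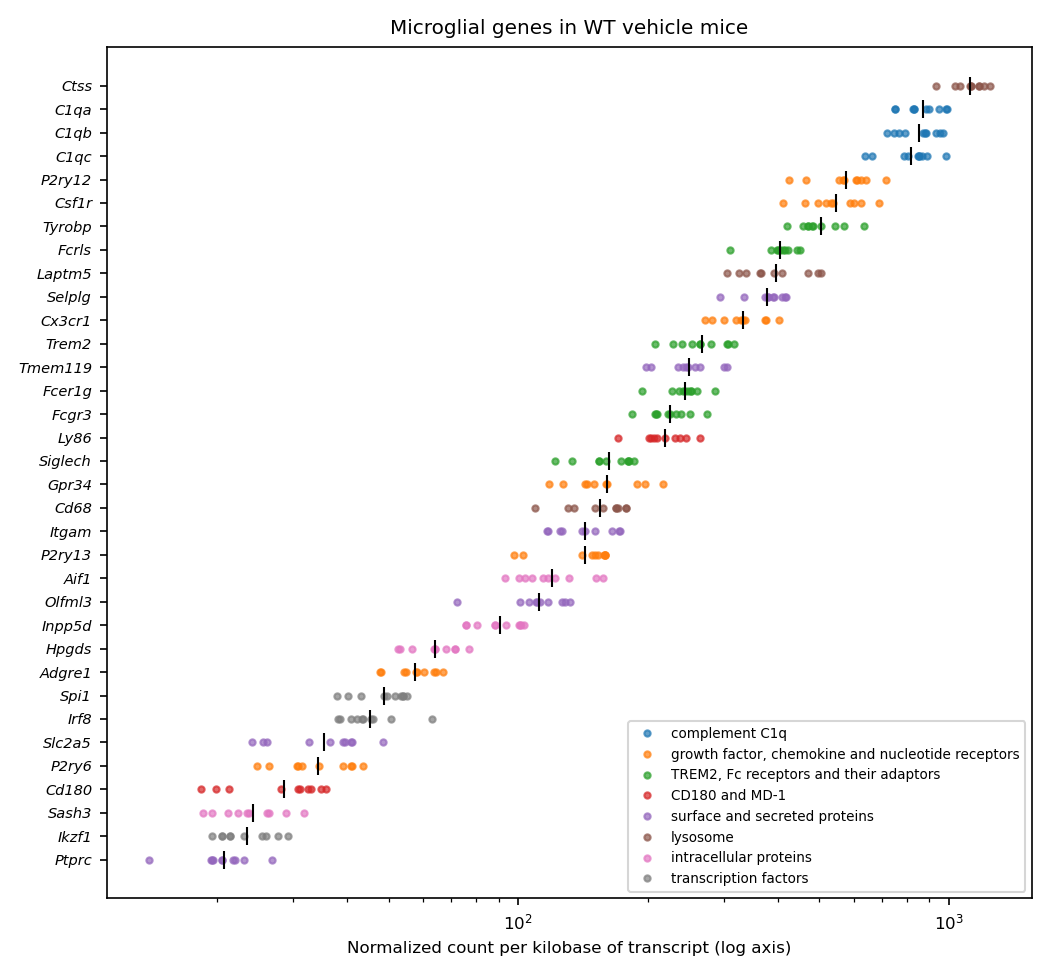
Level of each of the 34 microglial genes in the 10 WT vehicle libraries, as normalized count per kilobase of transcript on a log axis; points are libraries coloured by the gene's role and black ticks are means. Ctss and the 3 C1q chains stand at the top, between 818 and 1118 per kilobase on average, and Sash3, Ikzf1 and Ptprc at the bottom, between 20.7 and 24.2.

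The libraries held 22984556 to 35969254 reads in genes. Genes of other cell types were checked beside the members. Of 10 markers of blood monocytes and neutrophils 3 were in the table and 1, Ccr2, passed the filter, with summed levels of 8.09 to 62.0 normalized counts per library. Of 10 lymphocyte markers 3 were in the table and 1, Trbc2, passed, with summed levels of 178 to 602 normalized counts per library. Markers of border-associated macrophages, which line the vessels and meninges and share genes such as Csf1r and C1qa with microglia, were present, 9 of 10 passing the filter. The dissections differed in neighbouring tissue: the mean relative level of 8 olfactory bulb markers ran from 0.210 to 3.81 over libraries (1 being the mean of all libraries). Of the 6 libraries that stand apart, 4 had an olfactory bulb level over 2.5 (HT lithium female 4, HT vehicle male 4, WT fluoxetine female 1 and WT fluoxetine female 4). HT vehicle female 1 had choroid plexus markers at 22.4 times the mean and HT lithium female 5 had 2.70% mitochondrial reads. Counts without these 6 libraries, none of which is a WT lithium or WT vehicle library, are given with the results of drug and genotype, a choice made after seeing the data.

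Under lithium in HT mice members passed in both directions, as did the tested genes as a whole. By a linear model across all genes (limma, two-sided, Benjamini-Hochberg adjusted p under 0.05), 6 of the 34 genes rose and 2 fell in HT lithium mice relative to HT vehicle mice. In the same comparison 20.3% of all tested genes passed, 10.9% higher and 9.43% lower, so the share of members passing was close to the background. In all, 25 members lay above 0 and 9 below, with a median log2 fold change of 0.14 against 0.00 for all tested genes. No member's HT lithium and HT vehicle libraries were free of overlap (background 1.02%).

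Among receptors, Csf1r (ENSMUSG00000024621, on chromosome 18), whose product binds CSF-1 and IL-34, had 2648, 2933 and 3317 normalized counts (lowest, median, highest) in HT lithium mice, against 1856, 2340 and 2840 in HT vehicle mice. All 10 HT lithium libraries lay above the HT vehicle median and 6 above its highest library. Its log2 fold change was 0.35 ± 0.08 (SE, adjusted p = 0.000869). P2ry6, the UDP receptor tied to phagocytosis, was at 0.32 and Gpr34, a lysophosphatidylserine receptor, at -0.27 without passing (adjusted p = 0.0638 and 0.0809).

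The 3 C1q chains lay above 0 and 1 passed. C1qa (ENSMUSG00000036887, chr4:136895917-136898803) had 853, 948 and 1189 normalized counts in HT lithium mice, against 740, 847 and 939 in HT vehicle mice. Of the HT lithium libraries, 10 lay above the HT vehicle median and 5 above its highest value, for a log2 fold change of 0.22 ± 0.06 (adjusted p = 0.00521). C1qc (ENSMUSG00000036896, chr4:136889804-136893065), with 906, 995 and 1221 in HT lithium mice and 778, 865 and 1099 in HT vehicle mice, and C1qb (ENSMUSG00000036905, chr4:136880129-136886187), with 817, 990 and 1096 in HT lithium mice and 739, 888 and 1053 in HT vehicle mice, did not pass. Their log2 fold changes were 0.19 (adjusted p = 0.0564) and 0.16 (adjusted p = 0.0848).

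All 6 surface and secreted proteins and all 3 lysosomal genes lay above 0. Tmem119 (ENSMUSG00000054675, chr5:113793729-113800516), a membrane protein used to mark microglia, had 541, 675 and 735 normalized counts in HT lithium mice and 457, 529 and 634 in HT vehicle mice. Of the 10 HT lithium libraries, 9 exceeded every HT vehicle library, the other being female 4 (log2 fold change 0.31 ± 0.09, adjusted p = 0.00944). Selplg (ENSMUSG00000048163, chr5:113818536-113832644), the P-selectin ligand, had 646, 783 and 841 in HT lithium mice and 480, 618 and 750 in HT vehicle mice (0.29 ± 0.10, adjusted p = 0.023). All 10 HT lithium libraries lay above the HT vehicle median for Selplg, but without HT vehicle male 4 its change was 0.25 and did not pass (adjusted p = 0.0629). Laptm5 (ENSMUSG00000028581, chr4:130913125-130936141), a lysosomal membrane protein of blood-derived cells, had 667, 1112 and 1202 in HT lithium mice and 590, 881 and 1067 in HT vehicle mice (0.32 ± 0.09, adjusted p = 0.00937), with 7 HT lithium libraries above every HT vehicle library.

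Sash3 (ENSMUSG00000031101, chrX:48146436-48161565) had 42.1, 61.0 and 76.2 normalized counts in HT lithium mice, against 39.3, 44.8 and 58.6 in HT vehicle mice. Of the HT lithium libraries 6 lay above all HT vehicle libraries, and the log2 fold change was 0.34 ± 0.11 (adjusted p = 0.0261). That call was lost on leaving out HT lithium female 1 (adjusted p = 0.0569), HT lithium male 5 (0.0518), HT vehicle female 1 (0.0567) or HT vehicle male 5 (0.0551). The transcription factor genes Spi1, Irf8 and Ikzf1 lay between 0.06 and 0.15 and did not pass.

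The 2 genes that fell encode partners: CD180, a Toll-like receptor relative, and MD-1, the secreted protein that pairs with it, encoded by Ly86. Cd180 (ENSMUSG00000021624, chr13:102693558-102739629) had 32.6, 50.0 and 56.0 normalized counts in HT lithium mice, against 51.1, 64.3 and 84.4 in HT vehicle mice. All 10 HT lithium libraries lay below the HT vehicle median and 5 below its lowest library (log2 fold change -0.47 ± 0.14, adjusted p = 0.0127). Ly86 (ENSMUSG00000021423, chr13:37345208-37419036) had 120, 192 and 252 in HT lithium mice and 193, 229 and 282 in HT vehicle mice (-0.28 ± 0.10, adjusted p = 0.0296). Its call was lost without HT lithium female 5 (adjusted p = 0.105), HT lithium male 3 (0.0669), HT lithium male 5 (0.0681), HT vehicle female 3 (0.0599), HT vehicle female 5 (0.0503) or HT vehicle male 5 (0.0551). The TREM2 and Fc receptor group, Trem2, Tyrobp, Siglech, Fcer1g, Fcgr3 and Fcrls, was divided, 3 above and 3 below 0 with none passing; reads of Fcgr3 can be shared with its paralogs.

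After removal of a trend with GC content, to which the members (median 52.5% GC, against 49.9% for all tested genes) are exposed, 2 members passed (11.7% of all tested genes), Csf1r (0.29, adjusted p = 0.00966) and Cd180 (-0.42, adjusted p = 0.0427). The 6 members that rose in the main fit had 52.8% (Sash3) to 59.5% (C1qa) GC. The 2 that fell had 46.0% (Cd180) and 45.4% (Ly86), so direction went with GC content among the called members. Olfactory bulb markers were at a median relative level of 0.303 in HT lithium libraries and 0.735 in HT vehicle libraries, and summed border-associated macrophage markers at 1148 to 1609 normalized counts in HT lithium libraries and 882 to 1465 in HT vehicle libraries. Such a sum weights abundant genes most, and the median change of the tested macrophage markers, given below, lay slightly below 0. Without the 6 libraries that stand apart 6 members passed, 5 higher and 1 lower (13.7% of all tested genes), and with the olfactory bulb level as a covariate 9 passed (26.5%). Of 10 oligodendrocyte markers 9 lay below 0 and 1 fell, with summed levels of 50372 to 164941 normalized counts in HT lithium libraries and 73371 to 172522 in HT vehicle libraries. Of 10 astrocyte markers 8 lay above 0 and 3 rose, and of 10 endothelial markers 9 lay above 0 and 2 rose. The part of these other cells in the result was not tested.

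**Figure D2:**
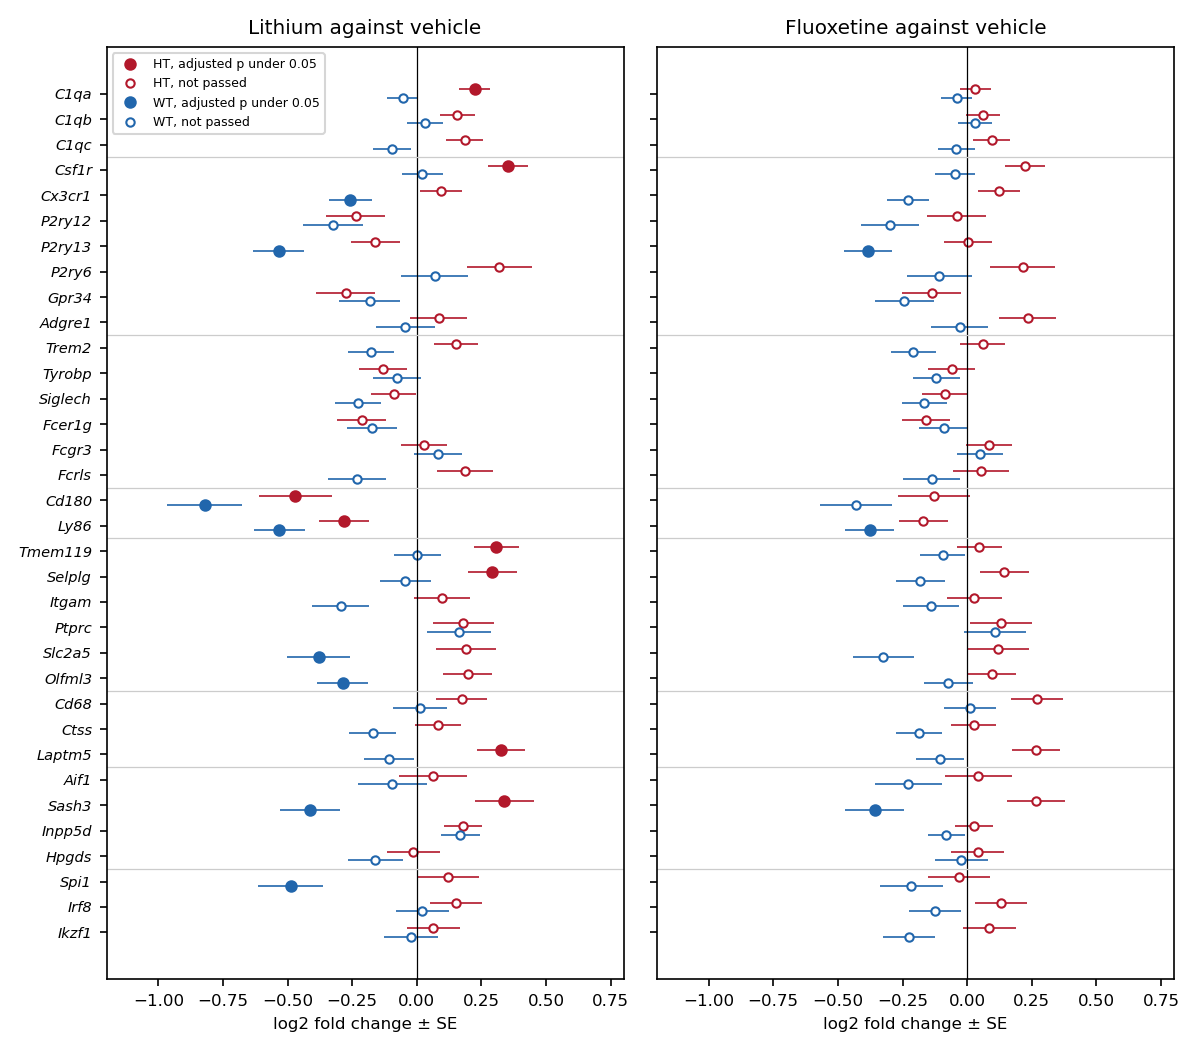
Log2 fold change ± SE of each of the 34 genes for lithium (left) and fluoxetine (right) against vehicle, in HT (red) and WT (blue) mice, with genes grouped by role and filled points passing adjusted p under 0.05. Under lithium 6 genes rose in HT mice and none in WT mice, Cd180 and Ly86 fell in both genotypes, and Sash3 was 0.34 in HT and -0.41 in WT mice. Of all 16599 tested genes 1809 rose and 1565 fell in HT mice, and 1272 rose and 848 fell in WT mice. No member passed the test of the difference between the lithium effects of the genotypes.

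Lithium in WT mice lowered 8 of the 34 genes and raised 0, where 5.11% of all tested genes fell and 7.66% rose (12.8% in either direction). In this comparison 25 members lay below 0 and 9 above, with a median log2 fold change of -0.13. No member was free of overlap between WT lithium and WT vehicle libraries (background 0.669%).

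Cd180 and Ly86 again fell. Cd180 had 20.3, 45.0 and 53.8 normalized counts in WT lithium mice, against 48.5, 82.1 and 94.9 in WT vehicle mice, with 6 of 9 WT lithium libraries below every WT vehicle library. Its log2 fold change of -0.82 ± 0.14 (adjusted p = 8.91e-05) was the largest among the members in any arm comparison. Ly86 had 130, 173 and 201 in WT lithium mice and 193, 243 and 299 in WT vehicle mice, with 8 of 9 WT lithium libraries below the lowest WT vehicle library (-0.53 ± 0.10, adjusted p = 0.000184). These 2 calls held on leaving out any one library.

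Among receptors, P2ry13 (ENSMUSG00000036362, chr3:59207892-59210882), which encodes an ADP receptor, had 165, 243 and 290 normalized counts in WT lithium mice and 247, 384 and 403 in WT vehicle mice. All 9 WT lithium libraries lay below the WT vehicle median and 5 below its lowest value (-0.53 ± 0.10, adjusted p = 0.00013). Its neighbour P2ry12 was at -0.32 and did not pass (adjusted p = 0.0567). Cx3cr1 (ENSMUSG00000052336, chr9:119901616-120069879) had 1008, 1268 and 1427 in WT lithium mice and 1218, 1486 and 1807 in WT vehicle mice (-0.26 ± 0.08, adjusted p = 0.0311), a call lost in 8 of the 59 refits that left out 1 library (WT lithium female 2, female 4, male 1 or male 4, or WT vehicle female 3, male 3, male 4 or male 5; adjusted p up to 0.0662). The annotated spans of P2ry12, P2ry13, Cd180, Cx3cr1, Csf1r and Gpr34 overlap genes on the opposite strand, such as Med12l at P2ry13. The library kit keeps strand, but whether counting used it is not given in the sources used here. The annotated span of Cx3cr1 also overlaps Gorasp1, Csrnp1 and Xirp1 on its own strand, with mean normalized counts of 862, 254 and 4.89. Strand would not separate reads from any exons shared with these genes. All the spans compared run from gene start to gene end, introns included, and overlap of exons was not examined.

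Spi1 (ENSMUSG00000002111, chr2:91082390-91115756), which encodes PU.1, had 34.6, 75.3 and 94.1 normalized counts in WT lithium mice and 77.4, 103 and 112 in WT vehicle mice. Of the 9 WT lithium libraries 6 lay below every WT vehicle library (-0.49 ± 0.12, adjusted p = 0.00587), while Irf8 and Ikzf1 lay at 0.02 and -0.02. Sash3 had 38.4, 47.1 and 60.4 in WT lithium mice and 49.5, 63.2 and 85.2 in WT vehicle mice (-0.41 ± 0.12, adjusted p = 0.0131). All 9 WT lithium libraries were below the WT vehicle median for both genes.

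Of the surface and secreted proteins, Slc2a5 (ENSMUSG00000028976, chr4:150119283-150144169), the fructose transporter GLUT5, had 54.8, 75.3 and 138 normalized counts in WT lithium mice and 76.2, 119.5 and 154 in WT vehicle mice (-0.38 ± 0.12, adjusted p = 0.0298). Olfml3 (ENSMUSG00000027848, chr3:103722222-103738001), a secreted olfactomedin-domain protein, had 365, 500.4 and 639 in WT lithium mice and 394, 609 and 719.9 in WT vehicle mice (-0.29 ± 0.10, adjusted p = 0.0435). Neither call held in all refits that left out 1 library. That of Slc2a5 was lost without WT lithium female 1 (adjusted p = 0.103), WT lithium male 4 (0.0668), WT vehicle female 3 (0.0681), WT vehicle female 4 (0.0673) or WT vehicle male 3 (0.0644), and that of Olfml3 without any of 13 single libraries, all of the WT lithium and WT vehicle arms (adjusted p up to 0.119). The C1q chains lay between -0.10 and 0.03, the lysosomal genes between -0.17 and 0.01 and the TREM2 and Fc receptor group between -0.23 and 0.08, with none passing.

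The count of 8 fell to 5 without WT lithium male 4, WT vehicle female 3 or WT vehicle male 3. Without the 6 libraries that stand apart it was 11, all lower (7.34% of all tested genes fell and 9.7% rose), adding P2ry12, Itgam and Siglech. As those 6 belong to other arms, the fold changes here are the same with and without them, and only the spread pooled over all arms differs. With the olfactory bulb level as a covariate 12 members passed, 11 lower and 1 higher (9.58% of all tested genes fell and 12.1% rose), the higher one being Inpp5d, a lipid phosphatase (0.14, adjusted p = 0.0185). Border-associated macrophage markers ran the other way, with 8 of 9 above 0 (median 0.24) and summed levels of 1150 to 1703 normalized counts in WT lithium libraries and 896 to 1395 in WT vehicle libraries. Olfactory bulb markers had medians of 0.781 in WT lithium libraries and 1.17 in WT vehicle libraries. Of the 10 endothelial markers 3 fell, and of the 10 astrocyte markers 1 fell. The summed astrocyte markers nevertheless had a median of 150743 normalized counts in WT lithium libraries and 144248 in WT vehicle libraries. Summed oligodendrocyte markers had medians of 137133 in WT lithium libraries and 163808 in WT vehicle libraries. The part of these other cells in the result was not tested.

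**Figure D3:**
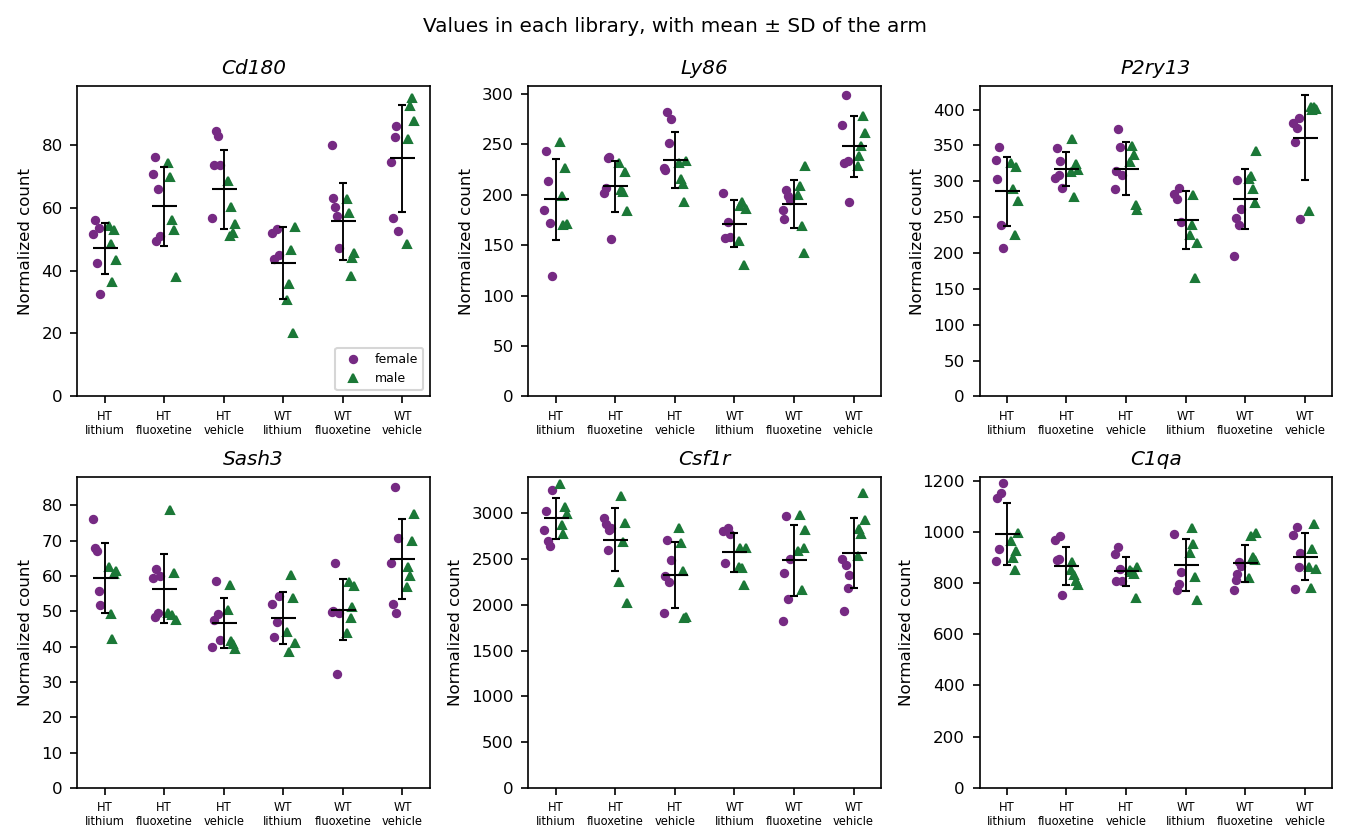
Normalized counts of Cd180, Ly86, P2ry13, Sash3, Csf1r and C1qa in every library, by arm, with circles for females, triangles for males and bars for mean ± SD. In the WT panels Cd180, Ly86, P2ry13 and Sash3 are lower under lithium than under vehicle, and in HT mice Csf1r and C1qa are higher under lithium.

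Fluoxetine in WT mice lowered 3 of the 34 genes and raised 0, where 2.11% of all tested genes fell and 3.54% rose (5.66% in either direction). Of the members 30 lay below 0 and 4 above, with a median of -0.13, and 11 had an unadjusted p under 0.05. This comparison and that of WT lithium use the same 10 WT vehicle libraries. P2ry13 had 195, 279 and 342 normalized counts in WT fluoxetine mice and 247, 384 and 403 in WT vehicle mice, and all 10 WT fluoxetine libraries lay below the WT vehicle median (-0.38 ± 0.09, adjusted p = 0.00939). Ly86 had 142, 197 and 229 in WT fluoxetine mice and 193, 243 and 299 in WT vehicle mice, again with all 10 below the WT vehicle median (-0.38 ± 0.10, adjusted p = 0.0125).

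Sash3 had 32.2, 50.1 and 63.8 normalized counts in WT fluoxetine mice and 49.5, 63.2 and 85.2 in WT vehicle mice (-0.36 ± 0.11, adjusted p = 0.0474). The call sat at the threshold, and 21 of the 59 refits without 1 library lost it, with adjusted p up to 0.125 (without WT fluoxetine female 4). Cd180 had 38.4, 57.8 and 80.1 in WT fluoxetine mice, against 48.5, 82.1 and 94.9 in WT vehicle mice (-0.43 ± 0.14), and did not pass in limma (adjusted p = 0.0551), though edgeR and DESeq2 on the recovered reads gave 0.0418 and 0.0234. No member was free of overlap (background 0.0542%). The count of 3 became 5 without HT lithium female 5 or WT vehicle male 1, and 10 with the olfactory bulb level as a covariate (17.2% of all tested genes). Olfactory bulb markers had a median relative level of 0.554 in WT fluoxetine libraries, with a highest value of 3.81, and 1.17 in WT vehicle libraries.

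Without the 6 libraries that stand apart, 2 of them WT fluoxetine females, 3 members again passed (4.04% of all tested genes fell and 6.66% rose), but they were Ly86, P2ry13 and Cd180 (-0.48, adjusted p = 0.0276). Sash3 was then at -0.27 (adjusted p = 0.117), the median of the members at -0.07, and 6 had an unadjusted p under 0.05. All 10 oligodendrocyte markers lay below 0 in WT fluoxetine mice relative to WT vehicle mice and 5 fell, with a median of -0.63 and summed levels of 56075 to 180185 normalized counts in WT fluoxetine libraries and 89467 to 262970 in WT vehicle libraries. All 5 erythroid markers lay below 0 (median -0.51, 0 passing), with summed levels of 1879 to 12271 in WT fluoxetine libraries and 8142 to 12677 in WT vehicle libraries. The part of these other cells in the result was not tested.

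Fluoxetine in HT mice changed 0 of the 34 genes by limma, edgeR or DESeq2 (0.277% of all tested genes passed, 0.205% higher and 0.0723% lower). Of the members 26 lay above 0 and 8 below, with a median of 0.06, and 5 had an unadjusted p under 0.05. These were Csf1r (0.23 ± 0.08, adjusted p = 0.19), Laptm5 (0.26 ± 0.09, adjusted p = 0.201), Cd68 (0.27 ± 0.10, adjusted p = 0.234), Sash3 (0.27 ± 0.11, adjusted p = 0.322) and Adgre1, which encodes F4/80 (0.23 ± 0.11, adjusted p = 0.386). Csf1r had 2022, 2834 and 3194 normalized counts in HT fluoxetine mice and 1856, 2340 and 2840 in HT vehicle mice. The HT vehicle libraries are those of the lithium comparison above. Groups overlapped for every member (background 0.00602%). Without the 6 libraries that stand apart 0 members passed (0.145% of all tested genes), 20 lay above 0 and the median was 0.03. All 5 erythroid markers lay below 0 (median -0.53, 0 passing), and the part of blood in the result was not tested.

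With both sexes together, genotype gave no calls under any treatment. Between HT vehicle and WT vehicle mice 0 members passed by limma, edgeR or DESeq2, as did 0% of all tested genes, and 4 had an unadjusted p under 0.05. Of the 34 genes 27 lay below 0 and 7 above, with a median of -0.11. In females alone 20 lay above 0 and 14 below (median 0.02), and in males alone 3 lay above 0 and 31 below (median -0.23); the difference between these medians was not tested. All 10 oligodendrocyte markers also lay below 0 (median -0.37), with 0 passing. Sash3 had 39.3, 44.8 and 58.6 normalized counts in HT vehicle mice and 49.5, 63.2 and 85.2 in WT vehicle mice (-0.46 ± 0.11, unadjusted p = 0.000153, adjusted p = 0.335). Laptm5 (-0.29 ± 0.09, adjusted p = 0.64), Slc2a5 (-0.27 ± 0.12, adjusted p = 0.731) and Cx3cr1 (-0.18 ± 0.08, adjusted p = 0.743) were the others. Under fluoxetine 30 members lay above 0 between HT fluoxetine and WT fluoxetine mice (median 0.10), and under lithium 29 did between HT lithium and WT lithium mice (median 0.15). In each of these 2 comparisons 0 members and 0% of all tested genes passed; 5 and 13 members had an unadjusted p under 0.05, and edgeR and DESeq2 also passed 0. Without the 6 libraries that stand apart 0 members passed in any of the 3 genotype comparisons. The medians were then -0.07 for HT vehicle against WT vehicle, 0.06 for HT fluoxetine against WT fluoxetine and 0.19 for HT lithium against WT lithium, with 2, 2 and 18 members at an unadjusted p under 0.05.

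The difference between the lithium effects of the 2 genotypes was tested directly. For 30 of the 34 genes the effect in HT mice lay above that in WT mice, with a median difference of 0.25 log2 units, and 15 had an unadjusted p under 0.05. None passed after adjustment in limma, edgeR or DESeq2, as 0.00602% of all tested genes did. Sash3 had a difference of 0.75 ± 0.16 (adjusted p = 0.0918), Olfml3 of 0.48 ± 0.14 (0.197), Spi1 of 0.61 ± 0.17 (0.197) and Slc2a5 of 0.57 ± 0.17 (0.206). Sash3 passed without HT lithium female 5 or without WT lithium male 3, which made the count 1, and with the olfactory bulb level as a covariate (0.71, adjusted p = 0.0245). For fluoxetine, the effect in HT mice lay above that in WT mice for 33 genes, with a median difference of 0.21, 9 at an unadjusted p under 0.05 and 0 passing by limma, edgeR or DESeq2 (background 0%). Without the 6 libraries that stand apart 27 genes lay above 0, with a median difference of 0.12 and 3 at an unadjusted p under 0.05. With all libraries, Sash3 had the smallest p for fluoxetine (0.62 ± 0.16, adjusted p = 0.765). The lithium and fluoxetine differences use the same HT vehicle and WT vehicle libraries, so they are not independent. Between those vehicle arms Sash3 itself lay at -0.46 in HT relative to WT mice.

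Sexes were compared within each effect. Averaged over arms, females and males did not separate: 0 members passed by limma, edgeR or DESeq2, where 0.0904% of all tested genes were higher in females and 0.127% lower (0.217% in all), and only Inpp5d (-0.12 ± 0.04, adjusted p = 0.29) and Cd180 (0.17 ± 0.08, adjusted p = 0.455), as females minus males, had an unadjusted p under 0.05. In fits of one sex alone, lithium in WT mice lowered 6 members and raised 0 in males, where 0.994% of all tested genes fell and 1.98% rose (2.97% in all). It changed 0 members in females, where 1.25% of all tested genes fell and 2.09% rose (3.34% in all), 8 members having an unadjusted p under 0.05 in females. Lithium in HT mice raised 5 members and lowered 0 in males, where 8.81% of all tested genes rose and 7.39% fell (16.2% in all). In females it lowered 2 members and raised 0, where 3.3% of all tested genes fell and 3.72% rose (7.02% in all). The tests of the difference between sexes passed 0 members for lithium in HT mice (background 0.012%) and in WT mice (background 0%) by limma and edgeR, and DESeq2 passed 1 in WT mice.

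Slc2a5 showed the widest gap. In males it had 69.1, 66.7, 81.8, 54.8 and 65.5 normalized counts in the 5 WT lithium mice, against 103, 130, 154, 124 and 129 in the 5 WT vehicle mice. In females it had 75.3, 113, 102 and 138 in the 4 WT lithium mice, against 82.3, 76.2, 115, 125 and 80.9 in the 5 WT vehicle mice. The log2 fold change was -0.91 ± 0.13 in males (adjusted p = 0.0002) and 0.15 ± 0.21 in females (adjusted p = 0.777), a difference of 1.06 ± 0.24 for females minus males (adjusted p = 0.114). In HT males lithium raised Slc2a5 (0.45 ± 0.13, adjusted p = 0.0195), with 102, 116, 111, 141 and 106 normalized counts in HT lithium males and 105, 81.7, 73.8, 76.2 and 82.6 in HT vehicle males.

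Under vehicle, HT males had lower Slc2a5 (-0.60 ± 0.13, adjusted p = 0.0285) and Laptm5 (-0.51 ± 0.13, adjusted p = 0.0499) than WT males, and these 2 were the members that passed there (0.819% of all tested genes passed, 0.307% lower and 0.512% higher). Between HT lithium males and WT lithium males Slc2a5 was the 1 member that passed (0.76 ± 0.13, adjusted p = 0.0307; background 0.0301%). The genotype difference in the lithium effect passed for 8 members in males, all above 0 (1.8% of all tested genes above 0 and 1.99% below, 3.79% in all), and 0 in females (0%), with medians of 0.42 in males and 0.03 in females. The 8 were Csf1r, Cx3cr1, P2ry13, Fcrls, Olfml3, Selplg, Laptm5 and Slc2a5, from 0.57 for Selplg to 1.36 for Slc2a5, and these male comparisons share their libraries. The difference between the sexes in this genotype effect was not itself tested.

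Fluoxetine in WT mice lowered 1 member in females, P2ry13 (4.01% of all tested genes fell and 3.75% rose, 7.76% in all), and 1 in males, Slc2a5 (0.825% fell and 1.6% rose, 2.42% in all). The difference between sexes passed for 0 members in limma, where 3.58% of all tested genes passed above 0 and 5.08% below (8.66% in all), and for 1 in edgeR and in DESeq2. Gpr34 was closest (-0.65 ± 0.23 for females minus males, adjusted p = 0.0614). For fluoxetine in HT mice (background 0%) and for genotype under vehicle (background 0.00602%) 0 members passed the test of the difference by limma, edgeR or DESeq2, with 2 and 8 members at an unadjusted p under 0.05.

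**Figure D4:**
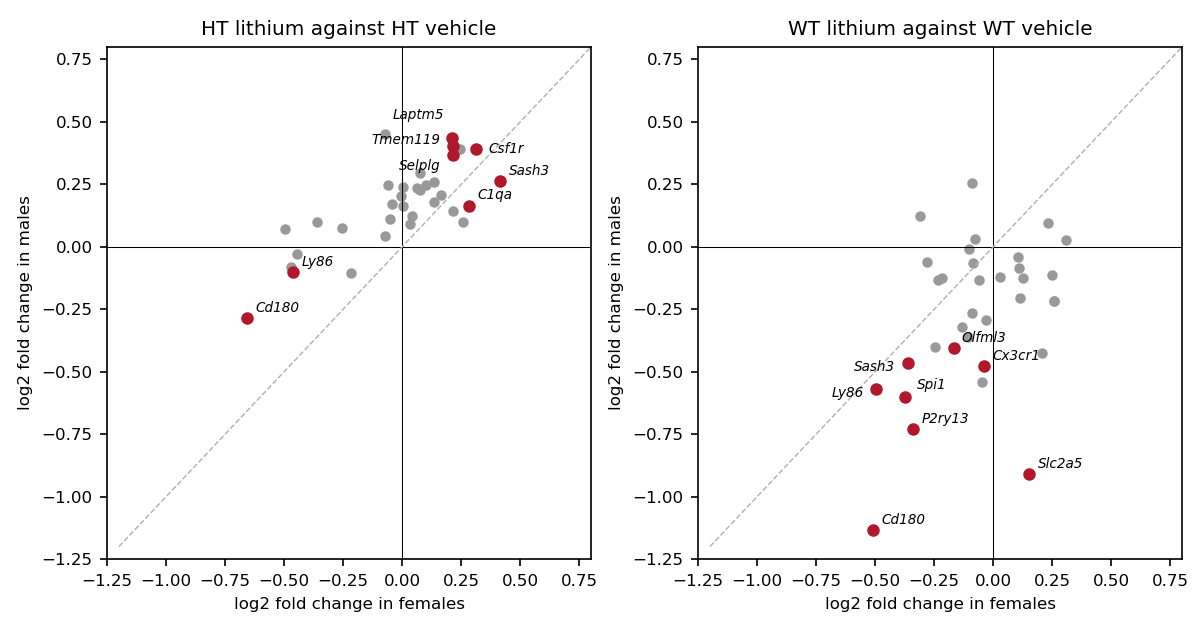
Log2 fold change under lithium in females (horizontal) and in males (vertical) for the 34 genes, in HT mice (left) and WT mice (right), each sex fitted alone; red points are genes that passed with both sexes together and the dashed line marks equal effects. Slc2a5 lies at 0.15 in WT females and -0.91 in WT males, and Cd180 is below 0 in both sexes of both genotypes.

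Other genes of the same cells were read from lists. Their counts are to be set against the shares of all tested genes that rose and fell: 10.9% and 9.43% in HT lithium mice, 7.66% and 5.11% in WT lithium mice and 3.54% and 2.11% in WT fluoxetine mice, each against its vehicle arm. Of 36 further microglial genes, 4 rose and 0 fell in HT lithium mice relative to HT vehicle mice (median 0.10), so the share that rose was close to the background. They were Plcg2, a phospholipase of immune receptors (0.36 ± 0.10, adjusted p = 0.00808), Mertk, a receptor for dying cells (0.26 ± 0.08, adjusted p = 0.0167), Abi3 (0.33 ± 0.11, adjusted p = 0.0348) and Syk, a kinase of immune receptors (0.23 ± 0.08, adjusted p = 0.0496). In WT lithium mice relative to WT vehicle mice 2 rose and 4 fell (median -0.07). Mertk rose there too (0.39 ± 0.08, adjusted p = 0.000936), with 1238, 1536 and 1753 normalized counts in WT lithium mice and 988, 1126 and 1287 in WT vehicle mice. Rgs10, a regulator of G-protein signalling, fell (-0.31 ± 0.07, adjusted p = 0.00182), as did Lcp1, an actin-bundling protein (-0.28 ± 0.07, adjusted p = 0.00547), and Tlr7 rose (0.39 ± 0.12, adjusted p = 0.0229).

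Of 18 tested genes of disease-associated microglia, Clec7a fell in HT lithium mice (-0.68 ± 0.25, adjusted p = 0.0404) and Ccl6 in WT fluoxetine mice (-0.51 ± 0.16, adjusted p = 0.0457), each against its vehicle arm, and 0 rose. Of 19 interferon-response genes 2 fell in HT lithium mice, Rtp4 (-0.52 ± 0.13, adjusted p = 0.00262) and Ifit2 (-0.29 ± 0.10, adjusted p = 0.0326), a share close to the 9.43% of all tested genes that fell there. Of 9 tested cytokine and chemokine genes 1 passed, Nfkbia, an NF-kappaB inhibitor, in HT lithium mice (0.26 ± 0.09, adjusted p = 0.0237); cytokines such as Il1b were below the filter and Tnf and Il6 were not analysed here. Of 14 complement genes other than C1q, Cfp, which encodes properdin, rose in HT lithium mice (0.34 ± 0.11, adjusted p = 0.0266), in WT lithium mice (0.50 ± 0.12, adjusted p = 0.00275) and in WT fluoxetine mice (0.40 ± 0.11, adjusted p = 0.029).

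Among 15 ligands and partners of microglial receptors, Cx3cl1, the neuronal ligand of CX3CR1, rose in HT lithium mice (0.28 ± 0.09, adjusted p = 0.0145), and Smad3, which carries the TGF-beta signal, rose in HT lithium mice (0.24 ± 0.07, adjusted p = 0.0163) and in WT lithium mice (0.31 ± 0.08, adjusted p = 0.00413). Nrros, a partner of TGF-beta on microglia, rose in WT lithium mice (0.30 ± 0.10, adjusted p = 0.0442). The ligands of CSF-1R did not pass: Csf1 was at 0.10 and Il34 at 0.15 in HT mice under lithium, and at -0.12 and 0.00 in WT mice.

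Border-associated macrophages were read from 9 tested markers. Of these 1 rose in HT lithium mice, 2 in WT lithium mice and 1 in WT fluoxetine mice, each against its vehicle arm, and 0 fell. Stab1, a scavenger receptor, rose under lithium in HT mice (0.42 ± 0.08, adjusted p = 9.29e-05) and WT mice (0.36 ± 0.08, adjusted p = 0.00148) and under fluoxetine in WT mice (0.25 ± 0.08, adjusted p = 0.0448). It had 665, 798 and 996 normalized counts in WT lithium mice, against 509, 618 and 758 in WT vehicle mice. Cd163, a haemoglobin scavenger receptor, rose in WT lithium mice (0.65 ± 0.19, adjusted p = 0.0189). The median of the 9 tested markers was -0.03 in HT and 0.24 in WT mice under lithium, and the medians of the 34 microglial genes were 0.14 and -0.13; the difference between the lists was not tested.

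**Figure D5:**
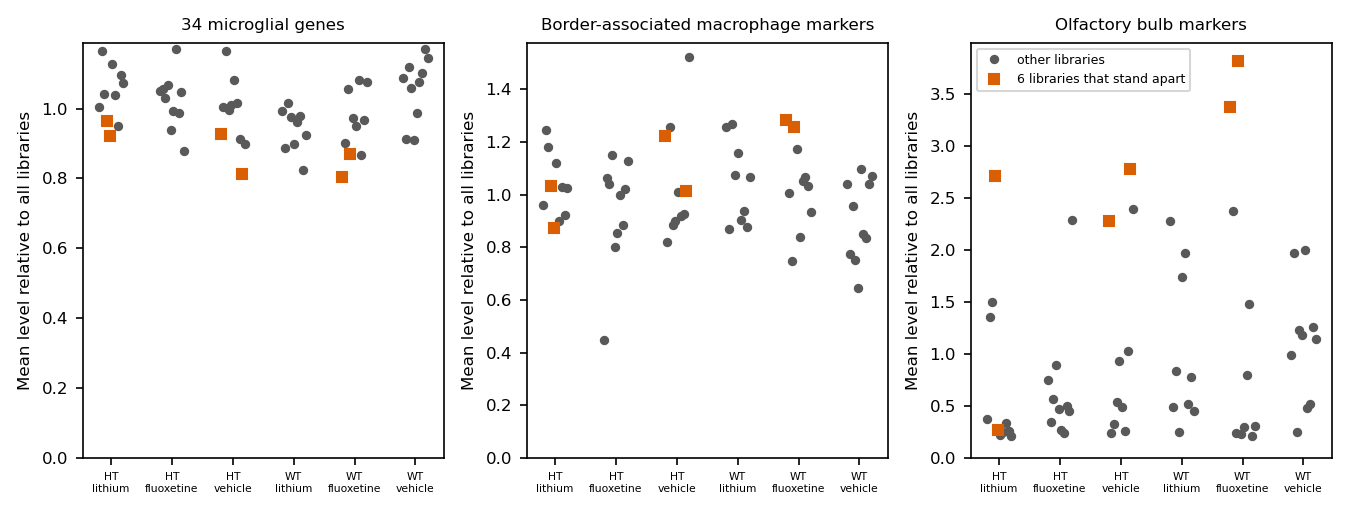
Mean relative level of the 34 microglial genes (left), 10 border-associated macrophage markers (middle) and 8 olfactory bulb markers (right) in each library, by arm, where 1 is the mean over all libraries; orange squares are the 6 libraries that stand apart. Microglial levels lie between 0.824 and 1.02 in WT lithium libraries and between 0.910 and 1.17 in WT vehicle libraries, and the 4 libraries with an olfactory bulb level over 2.5 have microglial levels of 0.965 or less. Levels this low are not particular to those 4 libraries, the medians being 0.962 in WT lithium and 0.959 in WT fluoxetine libraries.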

How the data were processed

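RNA was sequenced from the prefrontal cortex of 59 mice with a stranded mRNA kit, per the labels' protocols. Per the submitters' processing notes, Salmon 0.11.2, R 3.6.0, DESeq2 1.19.11 and GRCm38 were used. The deposited values are a signal: gene counts that the authors divided by size factors (0.783 to 1.245, recovered here). Whole reads were recovered for 100.0% of values within 0.001, and 0 columns were left unused. Ensembl identifiers gave symbols for 18077 genes (GENCODE vM21). Because the deposited values are normalized, limma 3.58.1 (R 4.3.3; trend, robust) was fitted to log2(normalized count + 1) of 16599 genes with a mean of at least 10, over 12 groups of genotype, drug and sex with 47 residual degrees of freedom. Arm effects average the sexes; fold changes on this scale understate changes of low genes. P-values are two-sided, adjusted over all tested genes in each of 15 comparisons (threshold 0.05). The fit was tested on simulated data. edgeR 4.0.16 and DESeq2 1.42.0 were run on the recovered reads. Alternatives were TMM and quantile scaling, pseudocounts of 0.5 and 5, no filter, GC trend removal (loess, span 0.5), single sexes, fewer groups, a replicate block and each library left out. Members with a call in an arm comparison and the C1q chains are named, and up to 4 called genes of other lists by smallest p. Members and lists were chosen with earlier results of these data known. Promoter sequences are RefSeq's, GRCm38.p6.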

Additional observations from a re-analysis of the deposited data

Results flagged for a closer look

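The sets of libraries examined numbered 96, each a named gene, or the mean relative level of all members, in one arm. In each set the highest or lowest library was compared with its neighbours by Dixon's criterion, which chance meets in about 1 set in 20. It was met 4 times. HT lithium female 5, the library with 2.70% mitochondrial reads, had 667 normalized counts of Laptm5, where the other HT lithium libraries had 919 to 1202. HT lithium female 4, one of the libraries with high olfactory bulb markers, had 541 of Tmem119, below the 638 to 735 of the others. WT vehicle female 5 had 394 of Olfml3 and the other WT vehicle libraries 553 to 719.9. HT fluoxetine male 2 had 78.7 of Sash3 and the other HT fluoxetine libraries 47.6 to 61.9.

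For Sash3 under fluoxetine, every HT fluoxetine library lay above the HT vehicle mean, by 9.80 normalized counts on average, and every WT fluoxetine library lay below the WT vehicle mean. The test of the difference gave 0.62 ± 0.16 log2 units (adjusted p = 0.765), which did not pass, and neither did the change in HT mice alone (0.27, adjusted p = 0.322). The vehicle arms also differed for Sash3, HT vehicle lying at -0.46 log2 units relative to WT vehicle, without passing.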

How the results depend on the processing

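The number of members called kept within 1.5 times its main value except as follows. In females alone it was 2 for HT lithium against HT vehicle, 0 for WT lithium against WT vehicle and 1 for WT fluoxetine against WT vehicle. In males alone it was 5 for HT lithium, 1 for WT fluoxetine, 2 for HT vehicle against WT vehicle, 1 for HT lithium against WT lithium and 8 for genotype by lithium. GC trend removal left 2 for HT lithium. With the olfactory bulb level as a covariate it was 10 for WT fluoxetine, 1 for genotype by lithium and 1 for sex by lithium in WT. DESeq2 gave 1 for sex by lithium in WT, and quantile scaling, edgeR, DESeq2 and leaving out the 6 libraries gave 1 each for sex by fluoxetine in WT; the causes were not tested. Leaving out each library in turn gave 6 to 11 for HT lithium, 5 to 10 for WT lithium, 2 to 5 for WT fluoxetine, 0 to 1 for genotype by lithium, 0 to 1 for sex by fluoxetine in WT and 0 to 0 for the other comparisons. Slc2a5 under WT lithium reversed in females alone (0.15).

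Of the 19 calls, 16 were lost in females alone and 10 in males alone, fits of fewer libraries. GC trend removal lost 6, all under HT lithium (Ly86, Laptm5, Sash3, C1qa, Selplg and Tmem119). Fits of only the groups compared lost 3, leaving out the 6 libraries lost 3, quantile scaling lost 2 and no filter on low values lost 1; TMM factors, edgeR and DESeq2 lost 0. Replicate numbers do not pair the libraries: over 145 same-numbered pairs their deviations correlated at -0.41 to 0.52 (median -0.0086), and no pair of groups had every correlation over 0.1. A replicate block gave 8 calls for HT lithium, 8 for WT lithium and 2 for WT fluoxetine, and lost 2 of the 19, Olfml3 under WT lithium and Sash3 under WT fluoxetine. Depth limits the lowest members most: Sash3 and Cd180 rest on about 54.4 and 58.1 counts per library.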
